A study of Mus musculus with 2 samples.

Results

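Malat1, Neat1 and Frmd8 are 3 neighbouring genes on mouse chromosome 19, and the open chromatin described here lies in their bodies and in 20 kb on each side. Because the flanks meet, the genes form 1 window of 119.585 kb on mm10 (chr19:5775690-5895274). It held 44 of the 157595 peaks of replicate 1 and 80 of the 166206 peaks of replicate 2. The genes were chosen by name and position with earlier results of these data known, so that their values are a description with no test. Open chromatin was mapped with DNase-seq, in which the enzyme DNase I cuts accessible DNA in nuclei. The tissue was whole adrenal gland of female B6CASTF1/J mice at 36 days of age, which are F1 hybrids between the inbred strains C57BL/6J and CAST/EiJ. There was 1 group of 2 libraries, biological replicates 1 and 2, whose labels number the animals differently but carry the same donor record. All comparisons are between the replicates, or between the locus and the rest of the genome.

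Malat1 and Neat1 make long noncoding RNAs that stay in the nucleus. Malat1 RNA gathers in nuclear speckles, which hold splicing factors, and a small transfer-RNA-like RNA is cut from its end. Neat1 RNA is the scaffold of paraspeckles, nuclear bodies that hold RNA-binding proteins, and it has a short and a long form that share a start, of which only the long form builds the bodies. Frmd8 encodes a FERM-domain protein, also called iTAP, that binds the iRhom proteins and so keeps the protease ADAM17 at the cell surface. All 3 genes are read from the minus strand. Malat1 spans chr19:5795690-5802672, Neat1 chr19:5824708-5845478 and Frmd8 chr19:5849702-5875274 in GENCODE release M21. Frmd8os, an antisense noncoding RNA gene at chr19:5845623-5851388 on the plus strand, starts 145 bp from the start of Neat1 and overlaps the end of Frmd8. Slc25a45, a mitochondrial carrier gene, and Tigd3, a gene derived from a transposable element, start in the flank upstream of Frmd8.

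Sites at or near the gene starts include the tallest of the locus, and for that reason the sequences of 4 of them are shown as letters of GRCm38.p6 from RefSeq, all read on the minus strand, the strand of the 3 genes, from 5′ to 3′. Capitals mark bases inside a footprint, a short stretch protected from cutting, in both libraries. The first lies over the Malat1 start at chr19:5802601-5802760, the second upstream of it at chr19:5803561-5803780, and the third in an intron of Frmd8os at chr19:5845781-5846040. The fourth is the part of the Frmd8 site that precedes its annotated start, chr19:5875275-5875400.
Malat1 start: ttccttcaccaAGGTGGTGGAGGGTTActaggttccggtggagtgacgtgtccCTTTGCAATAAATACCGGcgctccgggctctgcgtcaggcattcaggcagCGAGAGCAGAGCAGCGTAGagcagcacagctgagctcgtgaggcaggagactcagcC
Malat1 upstream: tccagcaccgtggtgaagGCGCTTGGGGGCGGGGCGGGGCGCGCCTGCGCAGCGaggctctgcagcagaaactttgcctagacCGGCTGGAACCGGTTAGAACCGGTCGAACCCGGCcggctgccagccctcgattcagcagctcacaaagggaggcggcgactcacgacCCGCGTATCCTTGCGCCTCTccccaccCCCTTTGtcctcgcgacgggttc
Frmd8os intron: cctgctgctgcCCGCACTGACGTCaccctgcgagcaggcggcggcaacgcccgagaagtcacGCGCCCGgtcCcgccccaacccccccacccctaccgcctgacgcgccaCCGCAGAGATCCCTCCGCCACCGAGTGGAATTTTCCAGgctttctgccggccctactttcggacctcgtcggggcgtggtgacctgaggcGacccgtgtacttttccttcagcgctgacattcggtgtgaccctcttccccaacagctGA
Frmd8 start: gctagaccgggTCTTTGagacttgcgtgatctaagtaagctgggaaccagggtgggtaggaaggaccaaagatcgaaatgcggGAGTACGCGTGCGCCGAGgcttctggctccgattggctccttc

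The footprints of both libraries covered 54 of the 160 bases at the Malat1 start, 97 of 220 upstream of Malat1, 62 of 260 in Frmd8os and 24 of 126 at Frmd8. The Frmd8os intron site held TGACGTCA, the full cyclic AMP response element, with 7 of its 8 letters in a footprint of both libraries, where 0.798% of 300-bp windows centred on the 157595 peaks of replicate 1 and 1.79% of 32851 RefSeq promoter windows of the same length hold it on either strand. The same site held GAANNTTC, the core of a heat shock element, with all 8 letters in a footprint, against 7.46% of peak windows and 7.86% of promoter windows. The site upstream of Malat1 held GCGCNTGCG, which resembles the element of NRF1, with all 9 letters in a footprint. Of peak windows 1.96% held that element, and of promoter windows 6.31%. The Malat1 upstream site also held GGGCGG, the GC box, at 4 places in its 300-bp window. At least 1 was held by 17.8% of peak windows and 35.7% of promoter windows. CCAAT stood 8 bp before the Frmd8 start with no base in a shared footprint. It was held by 32.3% of peak windows and 37.4% of promoter windows. All elements were searched on both strands. No match in the 300-bp windows of these 4 sites was found for AAGGTCA, a nuclear receptor element bound by NR5A1, for TGANTCA, the AP-1 element, for CCGGAAG, the ETS element, for CACGTG, the E-box, or for TGATGNAAT, an element of C/EBP and ATF factors. GGAATG, the TEAD element, stood once in the window upstream of Malat1, and 16.4% of peak windows and 14.7% of promoter windows held it. These are matches of letters, not bound sites.

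These windows were rich in CpG against peaks in general. The 300-bp window upstream of Malat1 had 32 CpG and 70.3% G and C, that in the Frmd8os intron 26 CpG and 66.0%, and that at Frmd8 28 CpG and 64.7%. The window at the Malat1 start had 13 CpG and 46.3% G and C. The medians over all peak windows of replicate 1 were 4 CpG and 50% G and C. Over the RefSeq promoter windows they were 7 CpG and 52.7%.

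**Figure D1:**
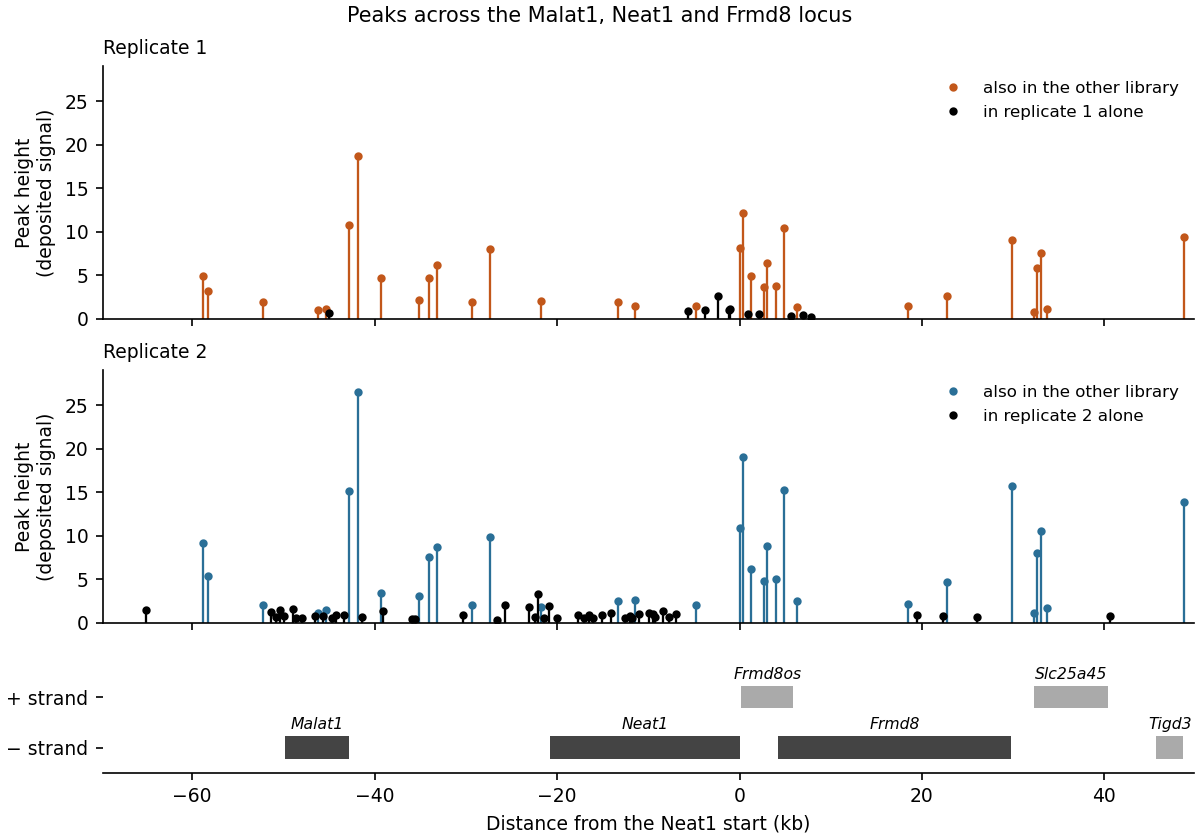
Height of each merged site of the longer lists, in the deposited signal, against its distance from the Neat1 start in kb, with replicate 1 above replicate 2 and the genes below; positive distances lead towards Frmd8. Coloured points have an overlapping peak in the other library and black points have none; the tallest site, 18.7 and 26.5, lies upstream of Malat1, and the black points cluster on different stretches in the 2 libraries.

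The height printed for a peak is the deposited signal value, whose scale is not stated in the sources used here. The tallest site of the locus was the one upstream of Malat1, with heights of 18.7 in replicate 1 and 26.5 in replicate 2 (22.6 ± 5.52, mean ± SD, n = 2). Its near edge lay 889 bp from the annotated Malat1 start. The site over the start itself reached 10.7 and 15.1. Replicate 2 was the taller at both. In bulk tissue, fewer cells with an open site and a weaker signal per cell cannot be told apart. The promoter height of a gene is that of its strongest peak within 1 kb of any annotated start, so that of Malat1 came from the upstream site. The Neat1 promoter reached 12.2 and 19.04 (15.6 ± 4.84) at the site in the Frmd8os intron, which this measure counts for both genes. The site nearest to the Neat1 start had 8.16 and 10.9, and in replicate 2 it was wider and ran over the start. The Frmd8 promoter reached 9.05 and 15.7 (12.4 ± 4.72) at chr19:5875201-5875400.

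All 3 genes thus had an open promoter in both libraries, where 68.6% and 69.6% of 21938 protein-coding genes and 36.8% and 37.7% of 10155 long noncoding RNA genes had one in replicates 1 and 2. Malat1 ranked 115 and Neat1 410 by mean promoter height among the long noncoding RNA genes, and Frmd8 ranked 5205 among the protein-coding genes. The rank of Malat1 rests on the upstream site, since within 500 bp of its start the mean height was 12.9. That of Neat1 rests on the site in the Frmd8os intron, which gives Frmd8os the same rank. The site nearest to the Neat1 start had a mean of 9.53. The median over protein-coding genes with a peak was 6.99 and 10.3, and over long noncoding RNA genes with a peak 2.34 and 3.05. The highest means among long noncoding RNA genes belonged to Gm42418 at 61.9, Gm15564 at 46.6, Gm12905 at 42.4, 1700084E18Rik at 34.2 and AA386476 at 34.1. The peaks of Gm12905, 1700084E18Rik and AA386476 lay nearer to the start of a protein-coding gene than to their own. That of Gm42418 was the tallest peak of replicate 1 in the whole genome, at 62.8, and was lower in replicate 2, at 61.1.

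The other genes that start in the window shared these sites or had their own. Slc25a45 reached 7.58 and 10.5 at chr19:5878421-5878620, with a second site of 5.85 and 8.03 at chr19:5878021-5878260. Tigd3 reached 9.35 and 13.8 at chr19:5894101-5894280. Gm37376, a small unclassified gene inside Malat1, took its 10.7 and 15.1 from the Malat1 start. Of the small RNA genes inside or beside Neat1, Gm28006 took its 12.2 and 19.04 from the Frmd8os intron, and Gm27505 its 8.16 and 10.9 from the Neat1 start. Gm27533 had 1.07 in replicate 1 from a peak of its own and 10.9 in replicate 2 from the Neat1 start. Gm27694 in Malat1 had 1.15 and 1.08, and Gm27702, at the end of Neat1, had no peak in replicate 1 and 1.93 in replicate 2.

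Between Malat1 and Neat1 several shared sites lay away from annotated gene starts. That stretch of 22.0 kb held 9 peaks in replicate 1 and 20 in replicate 2. All 9 peaks of replicate 1 had a partner in replicate 2, whereas 12 of the 20 in replicate 2 had none. The tallest away from the Malat1 start was chr19:5818041-5818240 with 8.02 and 9.85, followed by chr19:5812181-5812380 with 6.20 and 8.74 and chr19:5811281-5811480 with 4.70 and 7.502. The site at chr19:5806061-5806260 was 1 of 2 shared sites of the locus that were taller in replicate 1, with 4.73 and 3.42. The other, chr19:5823561-5823780, had 2.02 and 1.79. The tallest of these distal sites is shown because its footprints were called in both libraries over 51 of its 200 bases, in capitals as before. It held TGANTCA, the AP-1 element that 21.5% of peak windows hold, at 2 places, one with 3 of 7 letters in a shared footprint and one with none.
Between Malat1 and Neat1: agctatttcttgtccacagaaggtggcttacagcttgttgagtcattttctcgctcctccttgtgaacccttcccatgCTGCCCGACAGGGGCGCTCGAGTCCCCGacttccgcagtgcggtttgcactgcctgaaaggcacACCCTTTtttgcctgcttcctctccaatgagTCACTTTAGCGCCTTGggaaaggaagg

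Along the Malat1 body the replicates differed. By the position of their centres, its 7.0 kb held 3 peaks in replicate 1 and 11 in replicate 2. The peak over the start was counted in the body in replicate 2 only, since its centre fell just outside in replicate 1. Sites chr19:5799221-5799380, with 1.05 and 1.08, and chr19:5800061-5800280, with 1.15 and 1.46, were in both. A further 8 sites were in replicate 2 alone, with heights of 0.485 to 1.61, the tallest at chr19:5796361-5796580. The only one in replicate 1 alone, chr19:5800426-5800476, had 0.635. Positions at a false discovery rate of 0.05 or under, the authors' measure of cutting above background, covered 9.74% of the Malat1 body in replicate 1 and 38.4% in replicate 2. The 20 kb downstream of Malat1 had the same direction, with 3.72% and 12.8%, 3 peaks in replicate 1 and 9 in replicate 2. All 3 peaks of replicate 1 there had a partner, among them chr19:5786541-5786700 with 4.93 and 9.16.

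In Neat1 the direction changed within the gene. Over the 17.6 kb that only the long transcript holds, replicate 1 had 5 peaks and replicate 2 had 20, of which 17 were in replicate 2 alone. Their heights ran from 0.494 to 1.36. Over the 3.2 kb at the start of the gene that both transcripts hold, replicate 1 had 3 peaks by centre and replicate 2 had none. The replicate 2 peak chr19:5845361-5845740 ran over the start into this part, but its centre lay outside the gene. Sites in both libraries within the gene were chr19:5831941-5832260 with 1.94 and 2.52, which was also the widest shared one, chr19:5833921-5834100 with 1.42 and 2.55, and chr19:5840563-5840837 with 1.46 and 2.07. The widest site in the gene, chr19:5835246-5835860, was in replicate 2 alone at 1.05. The tallest in replicate 1 alone, chr19:5843001-5843180, had 2.56, and replicate 2 had no position at 0.05 or under in it. Positions at 0.05 or under covered 5.98% and 28.9% of the part that only the long transcript holds, against 29.8% and 5.96% of the part that both hold, in replicates 1 and 2.

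**Figure D2:**
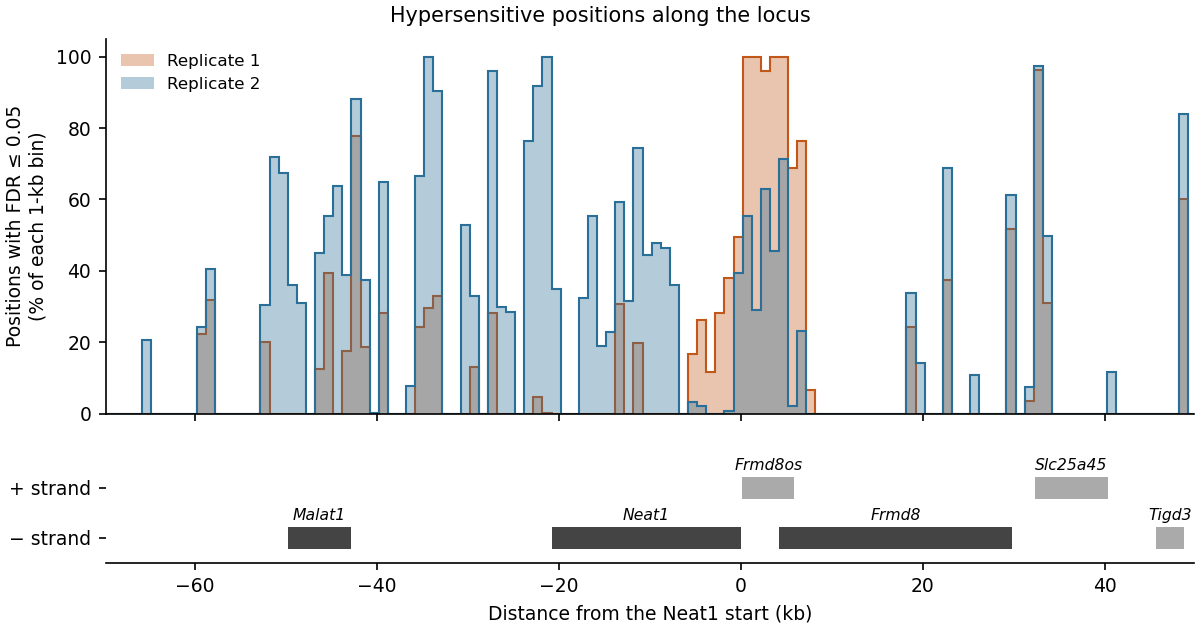
Percent of the positions in each 1-kb bin with a deposited false discovery rate (FDR) of 0.05 or under, against the distance from the Neat1 start in kb, for replicate 1 (orange) and replicate 2 (blue), with the genes below. Replicate 2 covers more of the bins over Malat1, the space up to Neat1 and most of Neat1, and replicate 1 covers more from the last part of Neat1 before its start to the overlap of Frmd8os and Frmd8 and just past it.

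The space between the Neat1 start and the Frmd8 end was covered almost throughout by positions at 0.05 or under in replicate 1. This is a share of positions, not a height. Of its 4.2 kb, 99.1% lay at 0.05 or under in replicate 1 and 50.7% in replicate 2. It held 8 peaks and 6 peaks, and the 6 sites in both libraries were the tall ones. Besides the sites near the starts of Neat1 and Frmd8os these were chr19:5846621-5846900 with 4.89 and 6.16, chr19:5848101-5848280 with 3.66 and 4.81, chr19:5848381-5848580 with 6.42 and 8.83, and chr19:5849361-5849600 with 3.78 and 5.07. The Frmd8os body as a whole was covered to 93.9% in replicate 1 and 47.0% in replicate 2. At a rate of 0.001 or under these shares were 88.2% and 38.0%. The longest unbroken stretches at 0.05 or under in replicate 1 lay here, chr19:5847934-5850728 with 2795 bp and chr19:5845199-5847891 with 2693 bp, whereas in replicate 2 the longest was chr19:5810075-5812594 with 2520 bp, between Malat1 and Neat1.

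Frmd8 was the most alike between the libraries of the 3 gene bodies in covered share, with 13.3% in replicate 1 and 10.01% in replicate 2. Its tallest site inside the body, chr19:5850241-5850420 with 10.4 and 15.2, lay in an exon of Frmd8 and an intron of Frmd8os. The next, chr19:5868121-5868340 in an intron, had 2.63 and 4.68, and chr19:5863847-5864100, also in an intron, 1.43 and 2.13. The widest, chr19:5851541-5851921, had 1.29 and 2.49. Replicate 1 alone had 3 low sites of 0.187 to 0.392 near the Frmd8os overlap, and replicate 2 alone had 3 of 0.680 to 0.830 in introns farther up the gene. Outside the overlap with Frmd8os the covered shares were 8.43% and 7.74%. In the 20 kb upstream of Frmd8, all 6 peaks of replicate 1 had a partner, and 1 of the 7 peaks of replicate 2 had none, at chr19:5886007-5886120 with 0.803.

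Across the window the peaks of both libraries merged into 90 sites, of which 33 were in both, 11 in replicate 1 alone and 46 in replicate 2 alone. Of the 44 peaks of replicate 1, 75% overlapped a peak of replicate 2, against 80.2% of all its peaks. Of the 80 peaks of replicate 2, 41.2% overlapped one of replicate 1, against 76.2% of all its peaks. In the shorter, stricter lists 26 of 32 peaks (81.2%) and 26 of 58 (44.8%) were shared, against 83.9% and 81.2% of all. Among peaks above the median height of their list 86.5% and 70.2% were shared, against 97.7% and 96% of all such peaks. The sites in 1 library alone were low, with a median height of 0.635 in replicate 1 and 0.803 in replicate 2, against 4.27 for the mean heights of shared sites. The genome-wide medians of peaks in 1 library alone were 0.420 and 0.441.

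**Figure D3:**
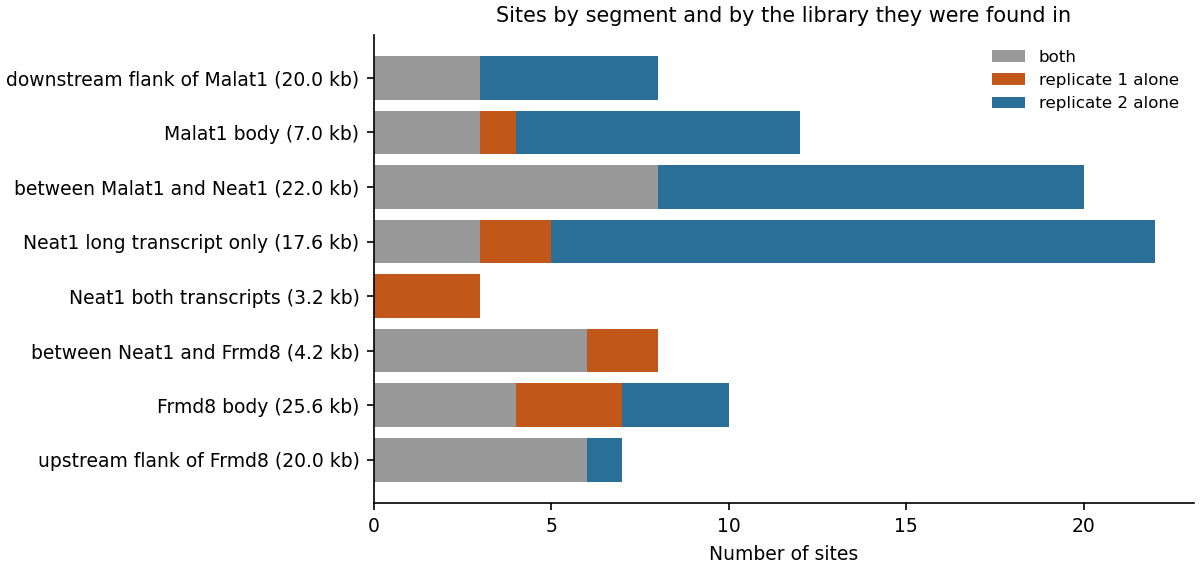
Number of merged sites in each segment of the locus, in order along the chromosome from the flank beyond Malat1 at the top to the flank beyond Frmd8 at the bottom, by the library they were found in. Sites are placed by their centres. Of the 46 sites in replicate 2 alone, 17 lie in the part of Neat1 that only the long transcript holds. The 3 sites placed in the part that both transcripts hold are in replicate 1 alone.

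The sites in 1 library alone lay on separate stretches. Of the 11 in replicate 1 alone, 10 fell in 13.6 kb from within Neat1 to a point in Frmd8 past the end of Frmd8os (chr19:5839814-5853374), where replicate 2 alone had none and 9 sites were in both. Of the 46 in replicate 2 alone, 42 fell before that stretch and 4 after it. These borders were taken from the sites themselves. The false discovery rates are no separate check of this absence, since every peak of the longer lists touched a position at 0.05 or under. In 10 of the 11 sites of replicate 1 alone no position of replicate 2 was at 0.05 or under, and in 45 of the 46 sites of replicate 2 alone no position of replicate 1 was. Repeat-masked bases made up a median of 0% of a site in replicate 1 alone, 8.02% in replicate 2 alone and 0% in both, with means of 13.8%, 15.2% and 8.72%.

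Of the peaks of the locus over 2 times the median height of their list, 1 of 26 in replicate 1 and 1 of 29 in replicate 2 had no partner. In replicate 1 this was chr19:5843001-5843180 in Neat1 with 2.56, where the line was 1.79. In replicate 2 it was chr19:5823321-5823540, beyond the end of Neat1, with 3.24, where the line was 1.99, and chr19:5819701-5819880 fell just short of it. Among all peaks over that line, 0.445% in replicate 1 and 1.16% in replicate 2 had no partner. The sequences of both are shown because they are the strongest signals that did not recur. No base lay in a footprint of both libraries, and the site of replicate 1 had no footprint at all, whereas that of replicate 2 had 38 footprint bases in its own library.
Tallest of replicate 1 alone: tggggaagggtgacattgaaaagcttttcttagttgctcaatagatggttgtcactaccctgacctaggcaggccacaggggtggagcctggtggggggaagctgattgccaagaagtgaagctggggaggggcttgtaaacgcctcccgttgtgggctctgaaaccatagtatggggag
Tallest of replicate 2 alone: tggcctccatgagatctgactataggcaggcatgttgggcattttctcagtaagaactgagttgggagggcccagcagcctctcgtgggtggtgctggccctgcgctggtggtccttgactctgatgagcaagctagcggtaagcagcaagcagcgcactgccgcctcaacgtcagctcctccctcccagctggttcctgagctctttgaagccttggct
Their 300-bp windows held 2 and 8 CpG, and none of the elements named here.

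The heights of shared sites had mostly 1 direction along the window. Of 33 shared sites 31 were taller in replicate 2, all but the 2 between Malat1 and Neat1 given above, against 75.7% of 126336 shared peaks of the genome. Their median log2 ratio of replicate 2 over replicate 1 was 0.49, a 1.41-fold difference, against a genome-wide median of 0.38, or 1.30-fold, with quartiles of 0.01 and 0.65. Among peaks of at least 3.78 in replicate 1 the medians were 0.49 in the locus and 0.58 in the genome. In the space between Neat1 and Frmd8, where replicate 1 had the wider cover, the 6 shared sites had log2 ratios of 0.33 to 0.64, and replicate 2 was the taller at each. Between Malat1 and Neat1, where replicate 2 had the wider cover, the median over 9 peaks was 0.49. Between Neat1 and Frmd8 the median was 0.42. Both medians lay above the 0.38 of all shared peaks of the genome. They lay below the 0.58 of those of at least 3.78 in replicate 1. All these ratios include the general difference in height between the libraries. Whether heights follow the cover of low signal apart from that difference was not tested.

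**Figure D4:**
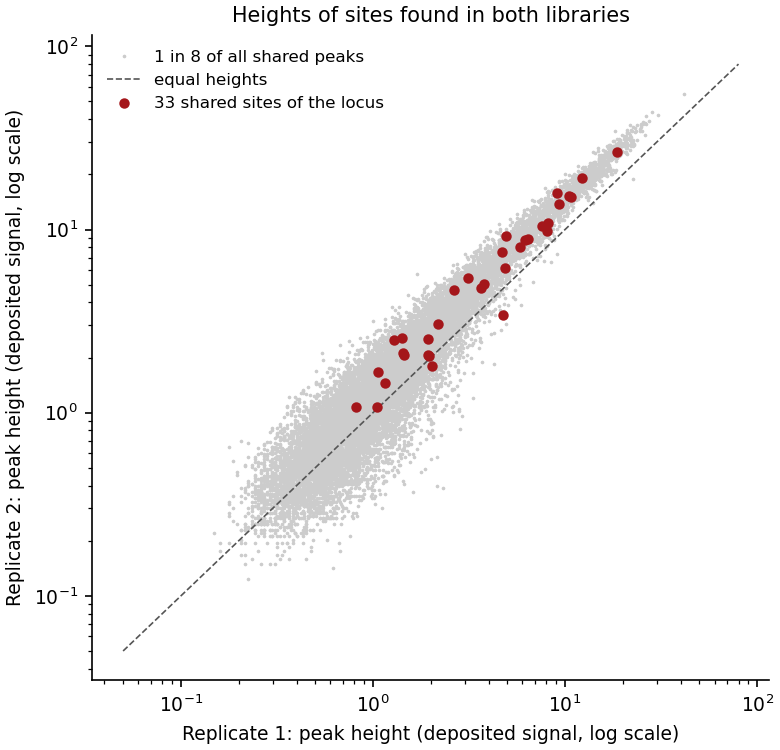
Peak heights in replicate 2 against replicate 1, both in the deposited signal on log axes, for 1 in 8 of all shared peaks of the genome (grey) and for the 33 shared sites of the locus (red), with a dashed line of equal heights. The sites of the locus lie within the cloud of other peaks, and 31 of the 33 lie above the line.

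Height and the rate at which a peak was called did not run in parallel across the window. In replicate 1 a peak of 2.17 at chr19:5810250-5810493 was missing from the stricter list, while one of 0.346 at chr19:5850921-5851220 in the overlap of Frmd8os and Frmd8 was in it. Of 26 peaks of the locus over 2 times the median height of replicate 1, 4 were missing from the stricter list, against 81 of 41147, or 0.197%, in the genome. In replicate 2 a peak of 2.07 at chr19:5840653-5840716 in Neat1 was missing and one of 0.556 at chr19:5823961-5824220 was in it, and 1 of 29 tall peaks was missing, against 0.0954% in the genome. The part that the depth or the local background of each library plays in these calls was not tested.

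Set against other genes, the shares of Malat1 and Frmd8os differed widely between the libraries. Among 24404 genes of at least 5 kb the median share of the body at 0.05 or under was 2.52% in replicate 1 and 2.69% in replicate 2, and the median difference of replicate 2 minus replicate 1 was 0 percentage points. The difference was 28.7 points at Malat1, which ranked 6, and 15.8 points at Neat1, which ranked 37. It was -3.25 points at Frmd8, which ranked 230 counted from the lowest, and -47.0 points at Frmd8os, the lowest of all. A difference of at least 25 points in favour of replicate 2 was met by 9 genes, or 0.0369%, and in favour of replicate 1 by 1 gene, or 0.0041%, which was Frmd8os. At a rate of 0.001 or under Frmd8os was still the lowest of all, with -50.2 points, and Malat1 ranked 14 with 18.6 points. The genes above Malat1, named after their values were seen, were Asmt, Hoxb9, Hoxb3os, Gm53 and Il4ra. By the mean share over both libraries Frmd8os ranked 2, at 70.5%, after the zinc finger gene Zfp503 at 87.2% and before Foxc1, a forkhead factor gene, at 64.9%, Tchh at 61.2% and Irf2bp2 at 59.2%. By that mean Malat1 ranked 238 and Neat1 617.

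**Figure D5:**
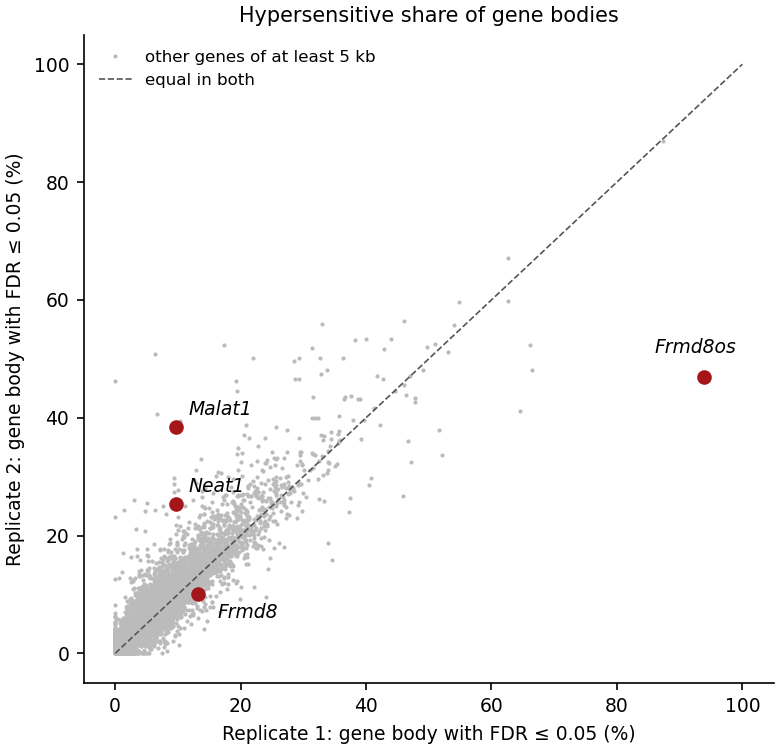
Percent of each gene body with a false discovery rate (FDR) of 0.05 or under in replicate 2 against replicate 1, for 24404 genes of at least 5 kb (grey) with the genes of the locus in red and a dashed line of equal shares. Malat1 (9.74% and 38.4%) and Neat1 (9.62% and 25.4%) lie above the line and Frmd8os (93.9% and 47.0%) far below it.

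The window held 109 footprints in replicate 1 and 175 in replicate 2, with median lengths of 10 and 9 bp. Of these, 63.3% in replicate 1 and 37.7% in replicate 2 overlapped a footprint of the other library, against 54.1% and 52.7% over the genome. The Malat1 body held 5 and 17, of which 3 in each library were shared, and the Neat1 body 11 and 28, of which 3 in each were shared. Between Neat1 and Frmd8 there were 27 and 22, with 18 and 16 shared, and in the Frmd8 body 11 and 16, with 4 and 6 shared. The longest measured 43 bp in each replicate. Of the sites in 1 library alone, 8 of 11 in replicate 1 and 17 of 46 in replicate 2 had no footprint in their own library.

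Genes whose products work with the 3 members all had open promoters, to be read beside the background shares given above. All 16 paraspeckle protein genes had a peak in both libraries, with median heights of 15.3 and 22.6. The tallest was Smarca4, a chromatin remodeller, at 25.5 ± 4.21, and the lowest Nono, a core paraspeckle protein, at 3.801 ± 0.116 (mean ± SD, n = 2). Named after their values were seen, its partners Sfpq and Pspc1 reached 14.2 ± 0.370 and 19.5 ± 5.82. All 9 nuclear speckle genes had a peak, with medians of 15.3 and 22.7, from Srsf6, a splicing factor, at 6.28 ± 1.66 to Srrm1, a speckle scaffold, at 25.5 ± 4.94. All 10 genes of the RNases that cut the Malat1 end had one, with medians of 6.97 and 10.2, from Rpp21 at 4.65 ± 1.80 to Pop7 at 26.8 ± 6.67, both RNase P subunits. Elac2, which encodes RNase Z and was also named after its value was seen, reached 15.1 ± 2.74. Of the FRMD8 partners, the iRhom gene Rhbdf1 reached 4.70 ± 1.51, Rhbdf2 7.28 ± 2.37 and the protease gene Adam17 17.3 ± 4.03.

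Of 12 other nuclear or abundant long noncoding RNA genes, 11 had a peak in each library, with medians of 4.32 and 6.52. The tallest was Gas5, a host of small nucleolar RNAs, at 17.6 ± 5.09, above Neat1 at 15.6 ± 4.84 by less than the SD. That SD includes the general shift in height between the libraries. Within each library Gas5 was the taller, with 14.0 against 12.2 in replicate 1 and 21.2 against 19.04 in replicate 2. Its mean was below the 22.6 of Malat1 within 1 kb of a start but above the 12.9 of Malat1 within 500 bp. Miat had no peak in either library.

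Peaks were dense in the window against the whole genome. That background includes stretches far from genes, whereas the window was chosen around genes, and windows of like gene density were not compared. The locus held 3.68 and 6.69 peaks per 10 kb, against 0.595 and 0.628 in the genome without gaps, and 13.2% and 23.1% of its positions were at 0.05 or under, against 1.75% and 1.85%. The files give no read totals, and no counting interval is attached to the heights or shares. Of 8 adrenal cortex markers 7 and 6 had a promoter peak, with none at Hsd3b1, and the medulla markers Th, Dbh, Chga and Chgb had one in both libraries. Of 4 endothelial markers 3 and 4 had a peak and of 3 macrophage markers 1 and 2, with none at Csf1r. Of 3 kidney markers 1 had a peak in each, of 3 liver markers none, and of 3 adipocyte markers 2 in each, with none at Adipoq. Reads of the hybrid's CAST/EiJ chromosomes were placed on a C57BL/6J sequence, and the effect of that on single sites was not tested.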

How the data were processed

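DNase-seq libraries of 2 adrenal glands of 1 group were used. The authors deposited, for each library, 2 peak lists with a height per peak, a signal whose scale is not stated, a table of false discovery rates (q-values) by position, and footprints with a p-value column that held 0.01 throughout. Per the labels, each was made on mm10 from the alignments of its own library, with no pooling. For the aligner, the caller and their settings: not given in the sources used here. All peaks of the longer list touched a position at or under 0.05, and every peak of the stricter, shorter list one at 0.001 or less.

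Results use the longer list unless stated. A peak belonged to the locus if its centre lay in the window, sites were merged at an overlap of 1 bp, and peaks were shared at 1 bp. Heights were compared with the strongest partner on the log2 scale with no pseudocount. Genes and starts came from the GENCODE M21 basic set and sequences from GRCm38.p6. Python 3.11.15, numpy 2.4.6, pandas 2.3.3, scipy 1.17.1 and matplotlib 3.10.9 were used, and overlaps were tested on simulated data. Named were the members, other genes that start in the window, the tallest and lowest of each list and its members without a peak, the 5 top genes by body share and 5 top long noncoding RNA genes by height, the tallest and widest peaks of each member, and tall peaks in 1 library alone. Members and lists were chosen with earlier results of these data known. No p-value was computed, since 1 group of 2 libraries has no second condition. A marker and the sequence of 1 site are not reported here.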

Additional observations from a re-analysis of the deposited data

How the results depend on the processing

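The promoter heights of Neat1 and Frmd8 kept their means of 15.6 and 12.4 within 500 bp of a start, at the outermost start alone and in the shorter list. Leaving out 1 of 2 libraries gives the value of the other, 12.2 to 19.04 and 9.05 to 15.7, and is no check of stability. That of Malat1 moved to 12.9 within 500 bp of a start, since the upstream site then falls outside, and ran from 18.7 to 26.5 without 1 library. The mean of 62 peaks in the locus became 28 with no flank, and 44 to 80 without 1 library. With no flank the shared share was 50% in replicate 1 and 26.3% in replicate 2, and among peaks above the median height it was 70.2% in replicate 2. The covered share of Frmd8, a mean of 11.6%, was 8.53% at a rate of 0.001 or under and 10.01% to 13.3% without 1 library. That of Malat1, a mean of 24.1%, was 15.8% at 0.001 or under and 9.74% to 38.4% without 1 library. That of Neat1, a mean of 17.5%, was 8.01% at 0.001 or under and 9.62% to 25.4% without 1 library. Footprints, a mean of 142, numbered 109 to 175. The median log2 ratio of shared sites was 0.19 after division by the median height of shared peaks in each library. Shares of shared peaks have no value without 1 library. No paired analysis was possible because there is 1 group.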
